A study of Mus musculus with 36 samples.

Results

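Glutathione is the main small thiol of the liver cell. Glutamate-cysteine ligase and glutathione synthetase make it, glutathione S-transferases couple it to reactive compounds for export, glutathione peroxidases spend it on peroxides, and glutathione reductase returns the oxidised form. Peroxiredoxins and thioredoxins run a parallel thiol system, while superoxide dismutases and catalase dispose of superoxide and hydrogen peroxide. Many of these genes are known targets of the transcription factor Nrf2 (gene Nfe2l2), which Keap1 holds back in the unstressed cell.

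The genes described here were the glutathione and antioxidant genes of a whole-genome array, chosen by name alone: probes whose array gene name began with a glutathione S-transferase, Mgst, Gpx, Prdx, Txn, Sod or Glrx prefix, or was Cat, Nqo1, Gclc, Gclm, Gss, Gsr, Srxn1, Slc7a11, Keap1 or Nfe2l2. This gave 78 genes on 132 probes, of 28476 gene names on 41174 probes in all. Of the 78 genes, 70 were present in the deposited values, on 114 probes, and the text describes each of these genes by its brightest probe. The 8 genes not in the table (Gstt4, Gpx5, Slc7a11, Mgst2, Nme8, Nxnl1, Txndc2 and Txndc8) had probes with a mean Cy5 signal of 1.21 to 2.14 times background, and none of their probes passed the test in the scanner data. Some genes carry newer names than on the array (Erp44, Glrx3, Tmx1 to Tmx4 and Txndc17 were listed as Txn genes), and the Txn prefix also took in protein disulfide isomerase relatives of the endoplasmic reticulum and the splicing factor genes Txnl4a and Txnl4b.

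Liver RNA came from 36 adult male mice, C57BL/6J per the labels, in 3 groups of 12, all kept on a mild-high-fat diet during an adaptation of 3 weeks per the labels. The study's methods name the substrain C57BL/6JOlaHsd and give a shorter adaptation. The t=0 group was killed when the adaptation ended. The control group (HF) stayed on that diet for 12 weeks more, and the quercetin group (HF-Q) received it for the same 12 weeks with 0.33% w/w quercetin, a plant flavonol. Each mouse was hybridised in Cy5 against a Cy3 pool of all samples on 1 of 36 arrays, which lie on 9 slides that each hold all 3 groups, and the replicates of a group are separate mice. All mice were fasted before they were killed. One array, HF-Q replicate 2, stood apart, with 96.72% of its spots well above background in Cy5 against 56.42 to 67.35% on the others. Of 8 hepatocyte markers 7 were in the table, at 78.9 to 11400 times background, and Gsta2, Gstm1 and Nqo1, taken as markers of the gene set, were well above background on 12 of 12 arrays of each group.

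Values are log2 of Cy5 normalised against Cy3, a difference of 1 is a doubling, and a gene was called when limma's moderated test had a Benjamini-Hochberg adjusted p under 0.05 over all 21781 probes. The spread between mice of a group, as an SD on this log2 scale, had a median of 0.173 over the 70 genes in the t=0 group, 0.171 in the control group and 0.166 in the quercetin group. It was highest for Gstt3 (0.521, t=0), Txnip (0.444, t=0) and Gstt2 (0.443, HF-Q) and lowest for Txnrd2 (0.0565, HF-Q).

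The start of several of these genes is shown because the same short element is a known Nrf2 binding site and because Gsta1 and Gsta2, which come first below, have probes that each list the other gene's transcript. The sequences are RefSeq's, build GRCm38.p6, read 5′ to 3′ on the gene's strand, and cover the 250 bases before the start of transcription. Gsta1 lies at chr9:78230419-78230668 (plus strand) and Gsta2 at chr9:78347146-78347395 (minus strand). Capitals mark the longest run they share, 29 bases that begin 118 bases before the start in Gsta1 and 121 in Gsta2.
Gsta1: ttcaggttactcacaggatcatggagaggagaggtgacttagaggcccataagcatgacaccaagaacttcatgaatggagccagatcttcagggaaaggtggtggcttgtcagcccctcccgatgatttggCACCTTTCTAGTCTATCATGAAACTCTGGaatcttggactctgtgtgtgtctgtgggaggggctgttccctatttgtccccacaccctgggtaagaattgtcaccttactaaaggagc
Gsta2: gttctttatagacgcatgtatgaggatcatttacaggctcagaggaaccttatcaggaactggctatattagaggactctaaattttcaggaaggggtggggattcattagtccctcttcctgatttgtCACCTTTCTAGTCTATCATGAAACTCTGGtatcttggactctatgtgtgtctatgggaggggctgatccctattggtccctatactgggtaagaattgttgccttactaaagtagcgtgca

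In the following sequences the capitals mark a match to the core of the antioxidant response element, TGACNNNGC, on either strand. Nfe2l2 is at chr2:75704664-75704913 (minus strand), Gstm5 at chr3:107895604-107895853 (plus strand) and Sod1 at chr16:90220512-90220761 (plus strand), where the match lies on the opposite strand.
Nfe2l2: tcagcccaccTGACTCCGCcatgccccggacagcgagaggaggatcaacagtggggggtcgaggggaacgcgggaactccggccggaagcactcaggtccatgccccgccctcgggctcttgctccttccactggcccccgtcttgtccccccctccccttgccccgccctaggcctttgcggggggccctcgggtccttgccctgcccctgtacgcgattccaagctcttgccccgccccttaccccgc
Gstm5: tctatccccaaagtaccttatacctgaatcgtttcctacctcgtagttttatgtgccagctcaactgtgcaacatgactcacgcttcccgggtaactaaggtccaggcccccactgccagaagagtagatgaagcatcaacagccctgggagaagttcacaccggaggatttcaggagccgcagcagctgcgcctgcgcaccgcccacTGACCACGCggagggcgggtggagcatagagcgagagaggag
Sod1: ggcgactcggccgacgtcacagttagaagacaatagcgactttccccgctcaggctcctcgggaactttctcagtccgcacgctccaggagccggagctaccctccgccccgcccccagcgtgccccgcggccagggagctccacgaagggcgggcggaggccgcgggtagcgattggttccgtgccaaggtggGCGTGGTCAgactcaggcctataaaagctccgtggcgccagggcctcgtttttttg

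Counting 250 bases before to 50 after each start, 67 of the 78 genes had an entry, and 15 of these (22.4%) held the element in at least 1 promoter, against 14% of all 27025 genes with an entry. Over single promoters the shares were 16.5% of 91 and 12.4% of 32851. The 15 were Gclm, Gsta3, Gstm5, Gstm7, Mgst1, Nfe2l2, Prdx1, Sod1, Srxn1, Tmx1, Tmx4, Txndc11, Txndc2, Txndc5 and Txnrd1. Neither Gsta1 nor Gsta2 had these letters in this window. Among genes with an entry that were called, the element was in 8 of 15 for the control group against t=0, 4 of 12 for the quercetin group against t=0, and 0 of 1 between the 12-week groups. These counts pool genes that rose with genes that fell, such as Gstm7. The share with the element among all called genes of the array was not counted. A match describes the sequence and is not a measured binding site.

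The first comparison asked what quercetin added to the diet. Of the 70 genes, 2 rose in the quercetin group and none fell (2.86%), where 2.1% of all 15544 genes were called, so the share was near that of the whole array. Over all genes 1.14% rose and 0.959% fell. Both were cytosolic glutathione S-transferases, Gsta2 and Gstt2. At an unadjusted p under 0.05 there were 14 of the 70 genes, a higher share than the 14.5% of all genes. The median log2 change of the 70 genes was -0.0007 and that of all genes 0.002, and the groups overlapped in every gene of the set, the share without overlap being 0% over all genes too. In whole liver RNA, fewer cells of a type and less RNA per cell cannot be told apart.

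**Figure D1:**
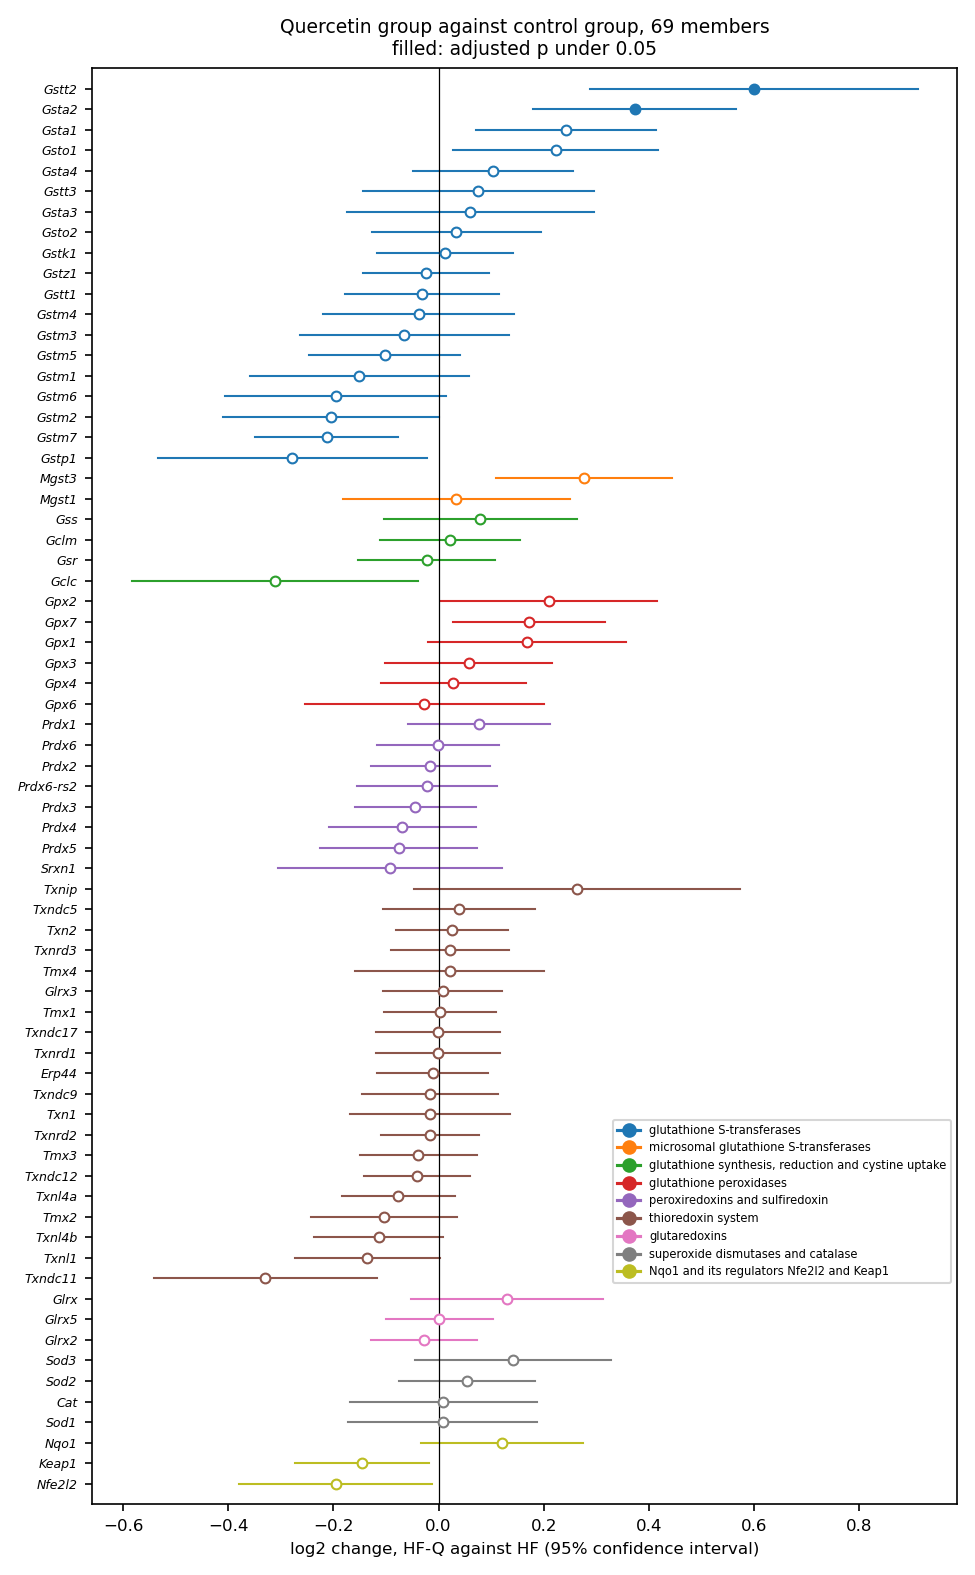
Log2 change (HF-Q against HF) of 69 of the 70 genes in the value table with its 95% confidence interval, n = 12 mice a group, grouped and coloured by class. Filled points are the 2 genes with an adjusted p under 0.05, Gstt2 at 0.60 and Gsta2 at 0.37, and the other 67 are open.

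Gsta2 encodes an alpha-class transferase, known for conjugating lipid peroxidation products. Its log2 value ran from 9.40 to 10.57 (median 10.04) at t=0, from 9.69 to 10.49 (median 10.15) in the control group and from 10.04 to 10.69 (median 10.51) in the quercetin group. The ranges overlapped, with 11 of 12 mice on quercetin over the median of the controls. The difference was 0.37 (SE 0.0932, 1.30-fold, adjusted p = 0.0287). Its probe lies at chr9:78119521-78119580 in build mm8, and since it and the Gsta1 probe each list the other gene's transcript, the signals of the pair cannot be fully separated.

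Gstt2, a theta-class transferase, showed the larger difference and the larger spread. Control values ran from 11.41 to 12.42 (median 11.86), and quercetin values from 12.20 to 13.75 (median 12.40). All 12 quercetin-fed mice were above the control median, with a single mouse far above the rest, though the ranges overlapped. The difference was 0.60 (SE 0.15, 1.52-fold, adjusted p = 0.0291), on a probe at chr10:75276177-75276236 (mm8). At t=0 the values were 11.70 to 12.69 (median 12.00), between the groups and overlapping both.

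These calls were close to the threshold. Within the 9 slides Gsta2 was higher in the quercetin group on 7, with a mean difference of 0.402 (range -0.185 to 0.968), and Gstt2 on 6, with a mean of 0.516 (range -0.0581 to 1.51). With the slide as a block neither gene was called (adjusted p = 0.0911 and 0.147), nor when the scanner signals were corrected by normexp and scaled by 1 median per array (0.326 and 0.229), while centring the deposited values on array medians kept both calls (0.0302 and 0.0303), and in the methods' t-test the adjusted p was 0.0499 and 0.059. Leaving out each mouse in turn, Gsta2 stayed called in 19 of 24 fits and lost the call without HF replicate 10 or 11 or HF-Q replicate 6, 9 or 11. Gstt2 stayed called in 21 and lost it without HF replicate 2 or 10 or HF-Q replicate 6, its highest adjusted p being 0.0574. Neither depended on the array that stood apart, since without it the differences were 0.36 (adjusted p = 0.0494) and 0.63 (adjusted p = 0.0291).

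Clock genes differed between the same groups. Of 12 listed, 10 were in the table, 4 rose and 2 fell in the quercetin group, where 2.1% of all genes were called. Dbp rose by 0.92, Tef by 0.63, Per3 by 0.42 and Nr1d2 by 0.42 on the log2 scale, and those that fell were Arntl, which fell by 1.00 (adjusted p = 0.0034), and Clock, which fell by 0.46 (adjusted p = 0.0044). With the Arntl value of each mouse as a covariate the Gsta2 difference was 0.37 (adjusted p = 0.203) and the Gstt2 difference 0.18 (adjusted p = 0.698), in a fit that called 1 of 21780 probes. Against t=0 the control group had 1 of the 10 clock genes called, Per3, which fell, where 20.7% of all genes were called. There 8 of the 10 differences were negative. In the quercetin group against t=0 none of the 10 was called, where 12.4% of all genes were, and 7 differences were positive. The hour at which each mouse was killed is not given in the sources used here.

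A further pair of transferases missed the threshold in the deposited values and passed it after loess. Gsta1, the neighbouring alpha-class gene, ran from 13.40 to 13.97 (median 13.75) in the control group and from 13.41 to 14.33 (median 13.97) in the quercetin group, a difference of 0.24 (adjusted p = 0.131). Mgst3 encodes a membrane-bound transferase and peroxidase of the microsomal family. Its values ran from 9.83 to 10.48 (median 10.03) and from 10.05 to 10.72 (median 10.32), with every mouse on quercetin higher than the median of the controls, a difference of 0.28 (adjusted p = 0.0683). A second Mgst3 probe gave 0.29 and was called (adjusted p = 0.0447). When the scanner signals were normalised by loess within each array, Gsta1, Gsta2, Gstt2 and Mgst3 were called, and no other gene of the set (differences 0.27, 0.37, 0.62 and 0.27). The Mgst3 call was lost in some variants of that loess. Over 20 alternative settings Gsta1 was called in 9 and Mgst3 in 7.

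**Figure D2:**
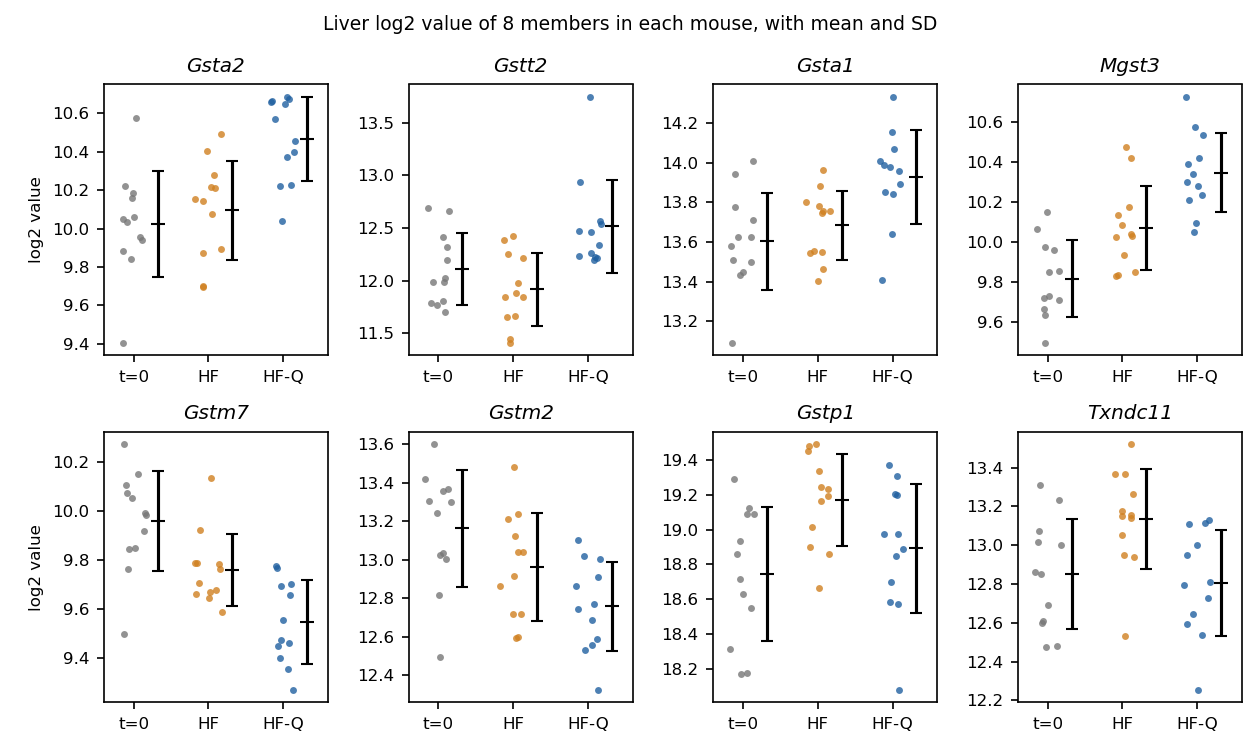
Log2 value of 8 genes in each mouse (points) by group, with the mean and SD of 12 mice beside the points and a y axis of its own for each gene. The 12 HF-Q mice lie above the HF median for Gstt2 and Mgst3 and below it for Txndc11, and the ranges of all groups overlap.

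The remaining transferases were not called and pointed both ways. Among the mu class, Gstm7 differed by -0.21 (adjusted p = 0.0878), Gstm2 by -0.20 and Gstm1 by -0.15 (adjusted p = 0.323 and 0.481), while Gstp1, the single pi-class gene here, differed by -0.28 (adjusted p = 0.269). The Gstp1 spot was saturated in Cy5 on 5 control and 3 quercetin arrays, and saturation in Cy3 was not counted. The size of this difference is therefore uncertain. Over the 19 transferases in the table outside the microsomal family, 9 differences were positive and 10 negative, with a median of -0.0241.

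The regulators and glutathione synthesis genes did not pass either. Nfe2l2 ran from 12.77 to 13.41 (median 12.97) in the control group and from 12.51 to 13.32 (median 12.76) in the quercetin group. Its difference was -0.20 (95% interval -0.38 to -0.01, adjusted p = 0.283). Over its 3 probes the differences ran from -0.20 to 0.07, and none was called. Keap1 differed by -0.14 (-0.27 to -0.02, adjusted p = 0.242) and Nqo1, a quinone reductase widely used as an Nrf2 readout, by 0.12 (-0.03 to 0.28, adjusted p = 0.443). Gclc encodes the catalytic subunit of glutamate-cysteine ligase, the first step of glutathione synthesis. It had 13.50 to 15.08 (median 14.14) in the control group and 13.21 to 14.23 (median 13.89) in the quercetin group, and 11 of 12 mice on quercetin were under the median of the controls, a difference of -0.31 (adjusted p = 0.238). Its partner Gclm differed by 0.02, Gss by 0.08 and Gsr, the reductase, by -0.02.

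No other class held a call. Across the 6 glutathione peroxidases the differences ran from -0.027 to 0.2097, with Gpx2, the gastrointestinal form, at 0.21 (adjusted p = 0.307). The 9 peroxiredoxin and sulfiredoxin genes ran from -0.0921 for Srxn1, which repairs over-oxidised peroxiredoxins, to 0.0773 for Prdx1. For the 3 glutaredoxins the widest was Glrx at 0.13, and for the superoxide dismutases and catalase it was Sod3, the secreted enzyme, at 0.14. Of the 20 genes listed with the Txn prefix, Txndc11, an endoplasmic reticulum protein with thioredoxin domains, had the largest difference at -0.33 (adjusted p = 0.0895). All 12 quercetin-fed mice had less of it than the control median, from 12.25 to 13.13 (median 12.80) against 12.53 to 13.52 (median 13.15). It was not called in the deposited values. The probes of this gene differed, as its 3 probes ran from -0.33 to 0.10 and none was called.

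Sod1, the cytosolic superoxide dismutase, was a gene whose probes disagreed. Its brightest probe gave 0.01, whereas a pair of dim probes named Sod1 but listed under another transcript gave 0.24 (adjusted p = 0.164) and 0.23 (adjusted p = 0.0302).

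Outside the set, 24 of 25 listed Nrf2 targets were in the table, of which 4 rose in the quercetin group (Abcc2, Abcc3, Entpd5 and Ephx1) and G6pdx fell, 5 of 24 where 2.1% of all genes were called. Abcc2 and Abcc3 are export pumps for conjugates, and rose by 0.26 (adjusted p = 0.025) and 0.32 (adjusted p = 0.016). Ephx1, the microsomal epoxide hydrolase, rose by 0.28 (adjusted p = 0.044), Entpd5 rose by 0.21, and G6pdx, which supplies NADPH, fell by 0.33 (adjusted p = 0.034). The median of the list was 0.0322. Of the 24 differences, 12 were positive and 12 negative. Of the other genes of glutathione metabolism (20 of 21 in the table) limma called none. Of these 20, 7 had an unadjusted p under 0.05, against 14.5% of all genes.

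Markers of other liver cells were measured in the same groups. No macrophage, stellate cell, red cell or hepatocyte marker was called. In the bile duct list Sox9 fell by 0.60 (adjusted p = 0.00053) and Krt19, Krt7, Spp1 and Epcam were not called, but all 5 differences were negative (-0.5995 to -0.0417, median -0.2989) and 3 had an unadjusted p under 0.05, while the summed level of its 5 genes ran from 13.59 to 14.71 in the control group and from 13.39 to 14.11 in the quercetin group. Pecam1 rose by 0.38 among 6 endothelial markers, of which 4 had negative differences (median -0.0277). Igh-6 fell by 0.56 among 5 lymphocyte markers, of which 4 had positive differences (median 0.0442). The summed lymphocyte level ran from 11.15 to 11.77 in the control group and from 10.91 to 11.71 in the quercetin group. The part of all these cell markers in the differences above was not tested.

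The second comparison set the control group against t=0, to see how the levels stood after 12 further weeks on the diet. The t=0 mice were killed 12 weeks earlier, so age and time on the diet cannot be told apart. In the deposited values 22 of the 70 genes were called (31.4%), against 20.7% of all genes. Of these, 19 rose, where 12.2% of all genes did, and 3 fell, where 8.5% did. At an unadjusted p under 0.05 there were 31 of 70, against 35% of all genes. The split between higher and lower depended on the normalisation. In no gene of the set did the groups separate without overlap, against 0.418% of all genes. With loess within each array 14 rose and 11 fell, and 16 genes were called both ways, 13 of them higher and 3 lower. Scanner signals corrected by normexp and scaled by 1 median per array gave 19 higher and 0 lower.

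**Figure D3:**
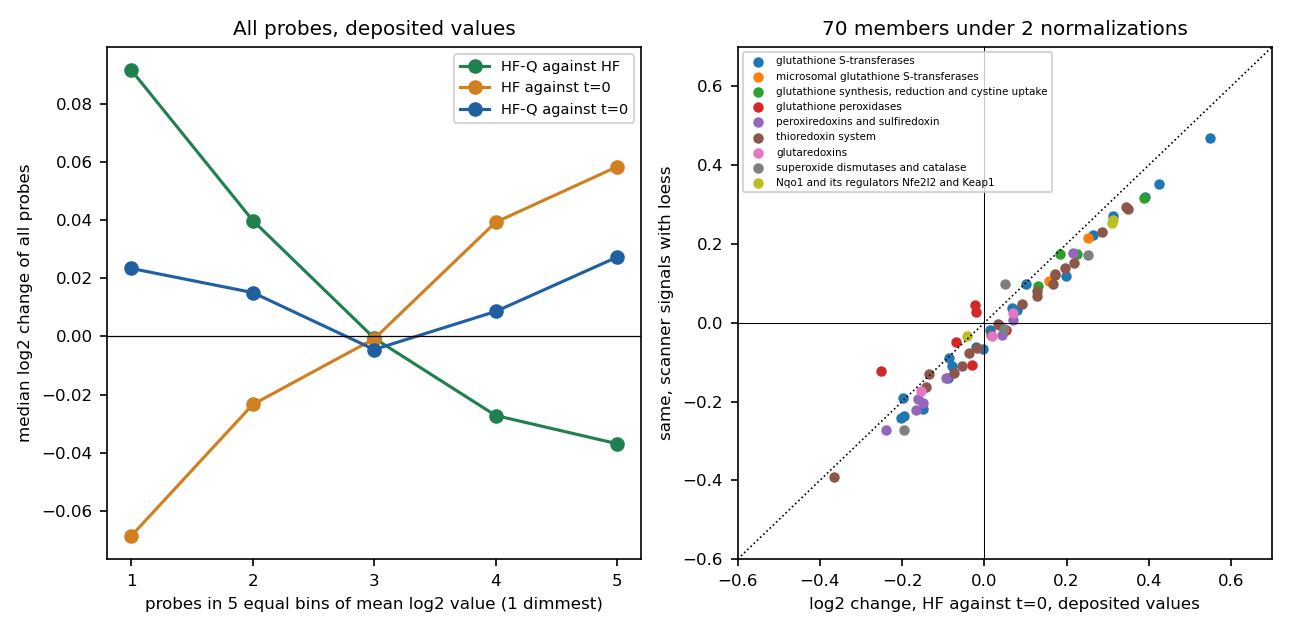
Left, median log2 change of all 21781 probes in 5 equal bins of brightness (mean log2 value) in the deposited values, one line per comparison. Right, log2 change of the 70 genes for HF against t=0 in the deposited values (x) and after loess of the scanner signals (y), coloured by class, with the line of equality dotted, and 62 of the 70 points lie below it.

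The deposited values hold 1 constant per array, and changes followed brightness over the whole array. For HF against t=0 the median change of all probes went from -0.0686 in the dimmest of 5 equal bins to 0.0584 in the brightest, and for HF-Q against HF it went the opposite way, from 0.0916 to -0.0369. Of the 70 genes, 46 had their probe in the brightest bin. Loess removes such a trend, and the genes called both ways are therefore given first.

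Of the 7 mu-class transferases Gstm1, Gstm3 and Gstm5 rose in the control group, Gstm7 fell, and Gstm2, Gstm4 and Gstm6 were not called (-0.20, -0.09 and -0.08). Gstm1 ran from 17.12 to 18.35 (median 17.57) at t=0 and from 17.79 to 18.69 (median 18.14) in the control group, with all 12 control mice above the t=0 median. It rose by 0.55 (SE 0.105, 1.46-fold, adjusted p = 0.000609) and was higher on 9 of 9 slides. A second Gstm1 probe gave 0.13 and was not called (adjusted p = 0.284), so the probes of this gene differ. Gstm3 rose by 0.39 and Gstm5 by 0.27 (adjusted p = 0.0096 and 0.00584). Members of this family share much sequence, and cross-hybridisation between them cannot be separated here.

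In the alpha class Gsta4, which handles the lipid aldehyde 4-hydroxynonenal, went from 10.15 ± 0.15 to 10.46 ± 0.13 (mean ± SD, n = 12), a rise of 0.31 (adjusted p = 0.00047) seen on 9 of 9 slides. Mgst3 rose by 0.25 (adjusted p = 0.0254). Gsta2 and Gstt2, the genes called for quercetin, were not called here, with differences of 0.07 and -0.20 (adjusted p = 0.664 and 0.284).

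Both regulators rose. Nfe2l2 ran from 12.51 to 13.16 (median 12.69) at t=0 against 12.77 to 13.41 (median 12.97) in the control group, a rise of 0.31 (adjusted p = 0.00561), and a second probe gave 0.27 (adjusted p = 0.0101), whereas a dimmer probe gave -0.13 and was not called. Keap1 ran from 12.11 to 12.79 (median 12.36) at t=0 against 12.47 to 12.88 (median 12.72), a rise of 0.31 (adjusted p = 0.00136). In both genes all 12 control mice lay above the t=0 median, and with loess the rises were 0.26 and 0.25. Nqo1 was not called, at -0.04 (95% interval -0.19 to 0.10, adjusted p = 0.683).

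**Figure D4:**
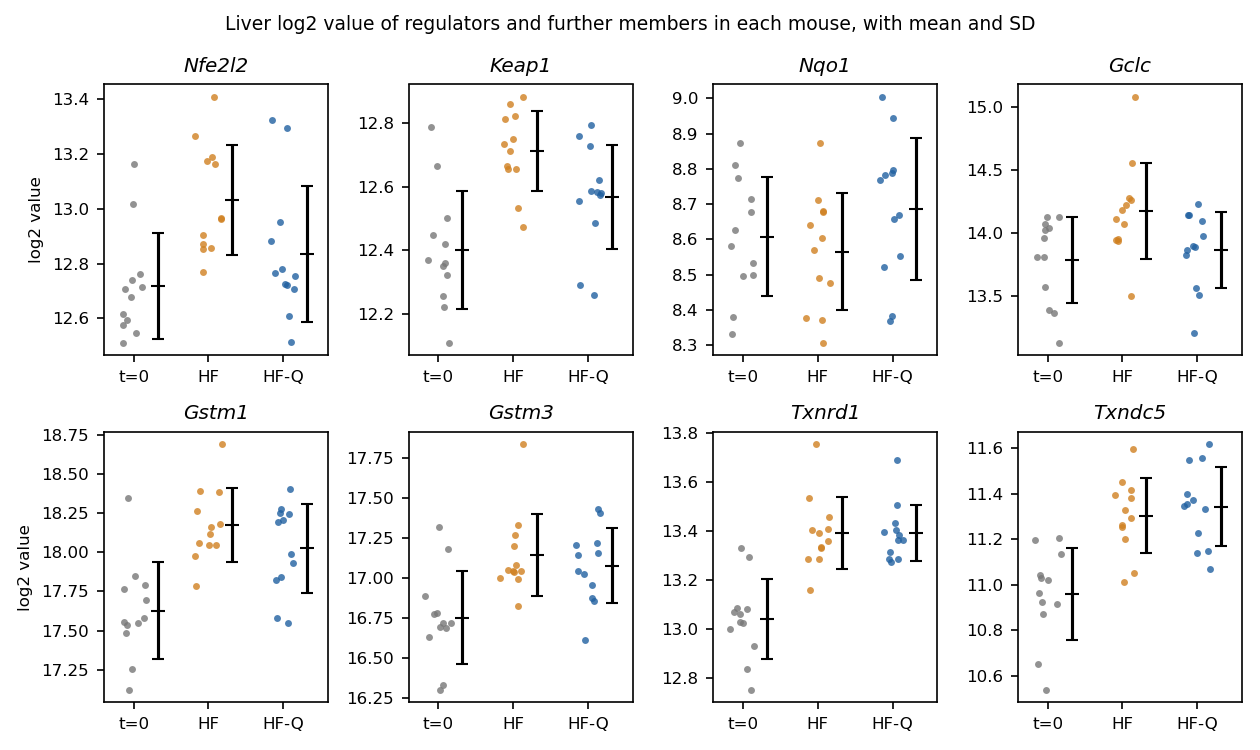
Log2 value of 8 genes in each mouse (points) by group, with the mean and SD of 12 mice beside the points and a y axis of its own for each gene. Nfe2l2, Keap1, Gstm1, Gstm3, Txnrd1 and Txndc5 have all 12 HF mice above the t=0 median, and Nqo1 has 5.

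The thioredoxin reductase genes Txnrd1 and Txnrd2 rose as well. Txnrd1, the cytosolic enzyme, ran from 12.75 to 13.33 (median 13.05) at t=0, from 13.16 to 13.75 (median 13.38) in the control group and from 13.27 to 13.69 (median 13.37) in the quercetin group. Both 12-week groups were above t=0 by 0.35 (adjusted p = 0.000396 and 0.000416). The 95% interval of the difference between them was -0.12 to 0.12. Txnrd2, the mitochondrial enzyme, rose by 0.17 on its brightest probe (adjusted p = 0.0163), whereas its dimmer probes gave -0.14 and -0.15 and were not called. Txndc5, a protein disulfide isomerase relative, rose by 0.35 (adjusted p = 0.00161), Txndc17 by 0.22, and Gsr by 0.23, with 0.22 and 0.29 on its other probes, both called. Sod1 rose by 0.25 on its brightest probe (adjusted p = 0.0351), while the pair of dim probes fell by 0.36 and by 0.26 (adjusted p = 0.0158 and 0.0146).

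Other increases were called in the deposited values and not with loess. Gstp1 ran from 18.17 to 19.29 (median 18.79) at t=0 and from 18.66 to 19.49 (median 19.21) in the control group. It rose by 0.43 (adjusted p = 0.0166), and the saturated control arrays leave that size uncertain, as above. Gclc rose by 0.39 (adjusted p = 0.0429) and was called in 11 of 24 fits that left out a mouse. Srxn1, Tmx3, Txndc11 and Txnl1 rose by 0.22, 0.17, 0.29 and 0.20, with adjusted p values from 0.0394 to 0.0495. The Txndc11 probes differed here too. After loess of each array against brightness its brightest probe gave 0.23 and the others -0.01 and -0.06, none called.

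Gstm7 fell by 0.20 (adjusted p = 0.0483), as did a second probe, but the brightest probe was called in only 6 of 24 fits that left out a mouse. Prdx6, a peroxidase of phospholipid hydroperoxides, fell by 0.17 and its near-identical copy Prdx6-rs2 by 0.24 (adjusted p = 0.0468 and 0.0225), and the signal of these copies cannot be assigned to 1 locus. With loess the genes that fell also included Cat (0.27 lower on the log2 scale), Prdx1, Prdx3, Txn2, Glrx3, Gstz1 and Txnip, and Gclm was called higher. In the deposited values these 8 had adjusted p values of 0.0744 to 0.551, and Cat stood at -0.19 (adjusted p = 0.144). The Gclm call with loess (adjusted p = 0.045) was lost in some variants, as after loess of each array against brightness (adjusted p = 0.0739).

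Outside the set, 11 of the 24 Nrf2 targets rose and Abcc2 fell in the control group, where 12.2% of all genes rose and 8.5% fell. The list median was 0.2575, against 0.0078 over all genes. In the glutathione metabolism list 5 of 20 genes were called (25%), near the 20.7% of all genes. Lap3 and Mpst rose, and the methionine cycle genes Ahcy, Bhmt and Mat1a fell, Bhmt by 1.00 (adjusted p = 2.5e-05). Some markers of several cell types were called in the same comparison, where 20.7% of all genes were. Hba-a1 rose by 0.93 and Hbb-bt by 1.07 (2 of 4 red cell markers), and the summed red cell level ran from 15.66 to 16.57 at t=0 against 16.58 to 18.57 in the control group. Krt19, Krt7 and Sox9 rose (3 of 5 bile duct markers), with summed levels from 13.37 to 14.64 at t=0 against 13.59 to 14.71. Of 6 endothelial markers Pecam1 fell by 0.34 and Cdh5 rose by 0.20, with 4 differences positive and 2 negative. Of 5 lymphocyte markers only Igh-6 was called and rose by 0.63, with 3 differences positive and 2 negative (median 0.0919). Of 7 hepatocyte markers only Cps1 was called and fell by 0.32 (adjusted p = 0.0184), while 5 differences were positive (median 0.0587). The 7 macrophage markers had positive differences of 0.108 to 0.8186 without a call. Their part in the changes of the glutathione and antioxidant genes was not tested.

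The third comparison set the quercetin group against the same t=0 mice. It shares its samples with the comparisons above and is not independent of them. Here 15 of 70 genes were called (21.4%), against 12.4% of all genes, 12 higher, where 7.04% of all genes were, and 3 lower, where 5.31% were. At an unadjusted p under 0.05 there were 35 of 70, against 27.4% of all genes. Again no gene of the set separated without overlap, against 0.212% of all genes. With loess there were 20, 13 higher and 7 lower. With the normexp scanner signals scaled by array medians there were 6 higher and 0 lower. All 4 red cell markers were called, Hba-a1 rising by 1.21, Hbb-bt by 1.38 and Slc4a1 by 0.26, while Alas2 fell by 0.26, and their summed level ran from 16.91 to 17.94. Of 7 hepatocyte markers, Apoa2 rose by 0.35, Cps1 fell by 0.45 and Ttr fell by 0.33. The part of these markers in the changes below was not tested.

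**Figure D5:**
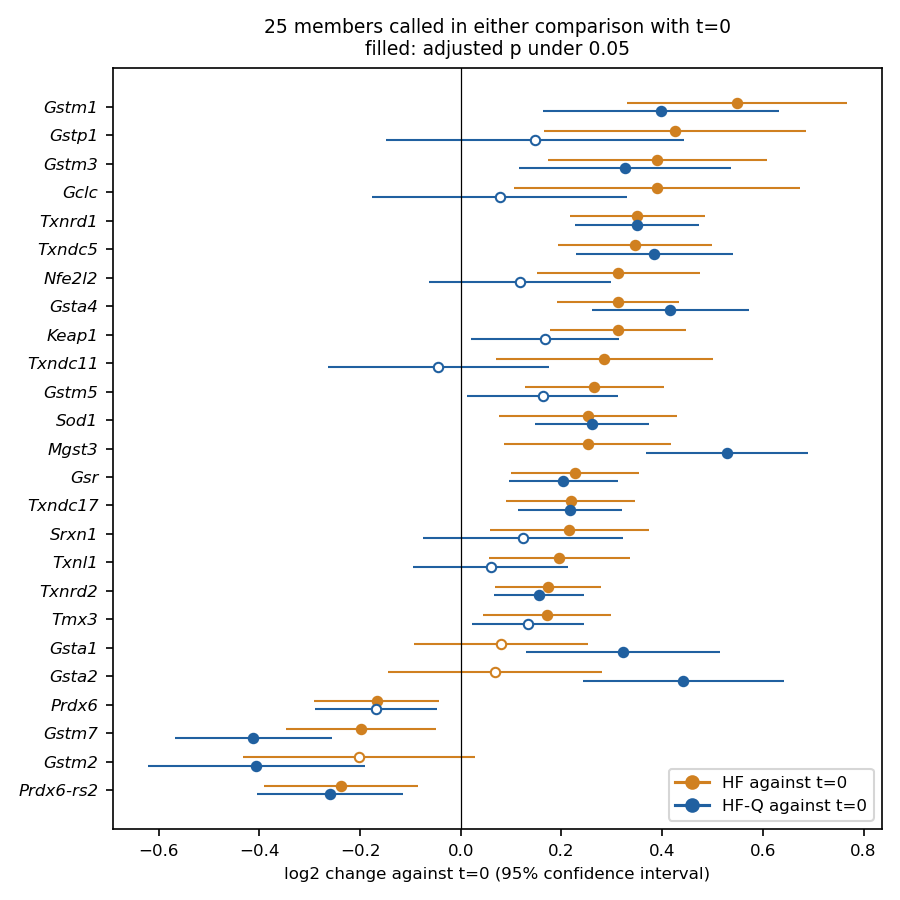
Log2 change against t=0 with 95% confidence intervals for the 25 genes called in either 12-week group, n = 12 mice a group, control (HF) in orange and quercetin (HF-Q) in blue, in the deposited values. Filled points have an adjusted p under 0.05. Gsta1, Gsta2 and Gstm2 are filled for HF-Q and open for HF. Nfe2l2, Keap1, Gclc, Gstp1, Gstm5, Srxn1, Tmx3, Txndc11, Txnl1 and Prdx6 are filled for HF and open for HF-Q.

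Mgst3 had the widest difference. It ran from 9.50 to 10.15 (median 9.79) at t=0 and from 10.05 to 10.72 (median 10.32) in the quercetin group, a rise of 0.53 (SE 0.0775, 1.44-fold, adjusted p = 8.28e-05) on 9 of 9 slides. Gsta2 rose by 0.44 (adjusted p = 0.00366), also on 9 of 9 slides, Gsta4 by 0.42 (adjusted p = 0.00077) and Gsta1 by 0.32 (adjusted p = 0.0236). Gstm2 and Gstm7 each fell by 0.41 (adjusted p = 0.0114 and 0.000805). Side by side, the differences from t=0 in the control and quercetin groups were 0.55 and 0.40 for Gstm1, 0.39 and 0.33 for Gstm3, and 0.35 and 0.38 for Txndc5. With loess Gstm1 and Gstm3 were not called in the quercetin group.

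For the genes called in the control group alone, the test of the difference is the first comparison. Nfe2l2 stood 0.31 above t=0 in the control group and 0.12 above it in the quercetin group (adjusted p = 0.418), Keap1 0.31 and 0.17, Gclc 0.39 and 0.08, and Gstp1 0.43 and 0.15. None of these 4 was called between the 12-week groups, so a difference of effect was not shown for them. The same holds for Gstm5, Srxn1, Tmx3, Txndc11, Txnl1 and Prdx6, the other genes called in the control group alone.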

How the data were processed

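Liver RNA of 36 mice was measured on Agilent 4x44K arrays. The authors deposited a table of log2 values, Cy5 normalised against Cy3 without background subtraction, for 23256 spots whose signal over background, averaged over both channels, exceeded 2, and also deposited the scanner intensity files (Agilent Feature Extraction 10.5.1.1, per the submitters' processing notes). The main values are the deposited log2 values. Spots of a probe were averaged to 21781 probes. Probes were named by accession through RefSeq where possible (116 of 132), and otherwise by symbol (13) or array name (3).

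Each comparison was fitted on its 24 arrays with limma 3.58.1 in R 4.3.3 (lmFit, eBayes, two-sided), adjusted over all probes (Benjamini-Hochberg), and checked on simulated data. The number of arrays limits the precision. Genes named by rule were Gsta2, Gstm1, Nqo1, Nfe2l2 and Keap1, and every gene of the set called between the 12-week groups. The rule added the 10 called genes with the largest changes in each comparison with t=0. It also took, between the 12-week groups, the largest change of each class and at most 5 called genes of each other list. The last were genes with a called probe and another uncalled or of opposite sign between the 12-week groups. Genes given besides these were chosen after their values were seen. The genes of the set and all lists were chosen with earlier results of these data known. The scanner intensities were background-corrected (normexp) and normalised by loess as an alternative. Other alternatives are given in the closing section. The values of 1 gene of the set, which is included in the counts, are not reported here.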

Additional observations from a re-analysis of the deposited data

How the results depend on the processing

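For the quercetin group against the control group, 2 genes of the set were called in the deposited values. Scanner loess gave 4, over all probes of the table or those above 2 times background in each channel. Over all non-control probes, without background correction, and without HF-Q replicate 2 it gave 3 each, Mgst3 not among them. Loess against brightness gave 4, any probe of a gene counted 4, quantile normalisation 5 and array weights 6 (804 of all probes against 513). The methods' t-test gave 1. Scanner signals corrected by normexp and scaled by array medians gave 0 (77 probes). The slide as a block (210 probes) and Arntl as a covariate (1 probe) also gave 0. Leaving out each mouse gave 0 to 4 genes, with 0 without HF replicate 10 or HF-Q replicate 6 and 4 without HF-Q replicate 4. Against t=0 it gave 15 to 21 genes for the control and 14 to 20 for the quercetin group. For the control group against t=0, probes above 4 times background gave 3012 called of 11511 probes against 4645 of 21781, fewer being tested, with 22 genes of the set called in both. For the quercetin group against t=0, the normexp scanner signals scaled by array medians gave 6 genes (396 probes) and array weights 26 (4220 probes), against 15 (2596). That scaling of the scanner signals moved the median change of all probes for the control group against t=0 from -0.0047 to 0.0959. Centring the deposited values on array medians gave 2, 21 and 16 genes in the 3 comparisons, against 2, 22 and 15. Counting any probe reversed Sod1 for the control group against t=0, to -0.2631. Apart from the smaller number of probes tested, the cause of these differences was not tested.

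With the replicate number as a block the first comparison had 1 gene called (360 probes), with an adjusted p of 0.0803 for Gsta2 and 0.0108 for Gstt2. Same-numbered mice of these groups showed little shared deviation (median correlation -0.00971, 3 of 12 over 0.1). With t=0 the median was 0.0606 for the control and 0.0327 for the quercetin group, with 4 of 12 over 0.1 in each. Such correlations cannot decide whether the numbers stand for a pairing. Over all comparisons 1081 values of single genes kept their direction and side of the threshold under the alternatives, 76 lost a call, 28 gained one, 33 uncalled values changed sign and 1 reversed.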

Other observations

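G6pdx and Abcc2, Nrf2 targets outside the set, were called in both comparisons that involve the control group. G6pdx rose by 0.33 in the control group against t=0 and stood at -0.0018 in the quercetin group against t=0, and Abcc2 fell by 0.27 and stood at -0.01. These comparisons share the control and t=0 mice. The list as a whole did not follow these genes. Of its 24 targets, 10 rose and none fell in the quercetin group against t=0, where 7.04% of all genes rose. The list median there was 0.2068, against 0.2575 in the control group against t=0.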
